A study of Rattus norvegicus with 16 samples.

Results

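The enzymes described here make, remodel and break down sphingolipids and gangliosides, and the set holds 10 genes out of 26565 genes and unnamed transcripts tested in rat hippocampus. Members were the non-control probes whose RefSeq accession belonged to Sptlc1, Sptlc2, Ugcg, St3gal5, B4galnt1, Asah1, Smpd1, Smpd2, Sphk1 or Sphk2. This gave 14 probes, and the probe with the highest mean signal over the 16 arrays stood for its gene. All 10 genes were found, and all 14 probes lay above background on all 16 arrays. Male Wistar rats were fitted with a guide cannula at the right amygdala at 5 weeks of age and received a 1.0 µl infusion 5 days later. Control rats received saline of pH 2.2 and were sampled on day 15. Rats of the 3 Fe groups received 100 mM FeCl3 in saline of the same pH, the injected iron salt used to model posttraumatic epilepsy, and were sampled on day 5, 15 or 30. The right hippocampus of each rat, on the side of the infusion, was taken whole and hybridised to its own Agilent 1-colour array, with 4 rats per group. Controls of day 5 and day 30 were not among the samples, so that age and time since infusion cannot be told apart from iron on those days.

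Sphingolipids are membrane lipids built on a sphingoid base. Serine palmitoyltransferase makes the base from serine and a fatty acid, and the base becomes ceramide. Ceramide is then turned into sphingomyelin, into galactolipids of myelin, or into glucosylceramide, from which sugars and sialic acids are added in the Golgi to give gangliosides, the sialic acid lipids that are abundant on neurons. Sphingomyelinases and ceramidases release ceramide and sphingosine again, and sphingosine kinases turn sphingosine into sphingosine-1-phosphate, a signal read by cell surface receptors.

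Signals are given as log2 signals, the log2 of the processed signal minus the log2 of the 75th percentile of that array, so that 0 is the level of that percentile and 1 unit is a 2-fold difference. The 75th percentile ran from 553 to 924 over the arrays, and between 74.2% and 81.6% of the transcript spots of an array lay well above background. Control arrays correlated across genes at 0.993 to 0.995 and arrays within an Fe group at 0.977 to 0.993. Of the markers of neurons 11 of 12 were measured and all 11 lay above background on all 16 arrays, as did 7 of the 8 markers of hippocampal subfields, the eighth not being measured. Markers of meninges and fibroblasts, of which 11 of 12 were measured, stood apart on 3 arrays. Their score, the median log2 difference of the markers from their control means, was 4.55 and 2.71 in Fe day 5 replicates 2 and 3 and 3.37 in Fe day 30 replicate 3, against −0.07 to 0.08 in the controls. The score of the choroid plexus markers, with 6 of 12 measured, was 8.24 in Fe day 30 replicate 3 and 4.61 in Fe day 5 replicate 3. In a whole hippocampus, fewer cells of a type and less RNA per cell cannot be told apart.

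No member passed the threshold of limma, a Benjamini-Hochberg adjusted p under 0.05 over all 26565 features, in any of the 6 comparisons among the 4 groups. At day 5 limma called 0% of all features, at day 15 also 0% and at day 30 0.00753%. At an unadjusted p under 0.05 there were 3 members at day 5 (B4galnt1 and St3gal5 lower, Sphk1 higher), against 10.3% of all features. At day 15 there was 1 of 10, B4galnt1, against 11.5%, and at day 30 again B4galnt1, against 7.77%. The median log2 difference of the 10 members from control was −0.06 at day 5, −0.08 at day 15 and −0.06 at day 30, beside −0.02, 0.0014 and −0.01 over all features. In the F-test over the 4 groups B4galnt1 had the lowest unadjusted p of the members, 0.072, with an adjusted p of 0.62. The F-test called 0% of features, and 8.34% had an unadjusted p under 0.05.

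**Figure D1:**
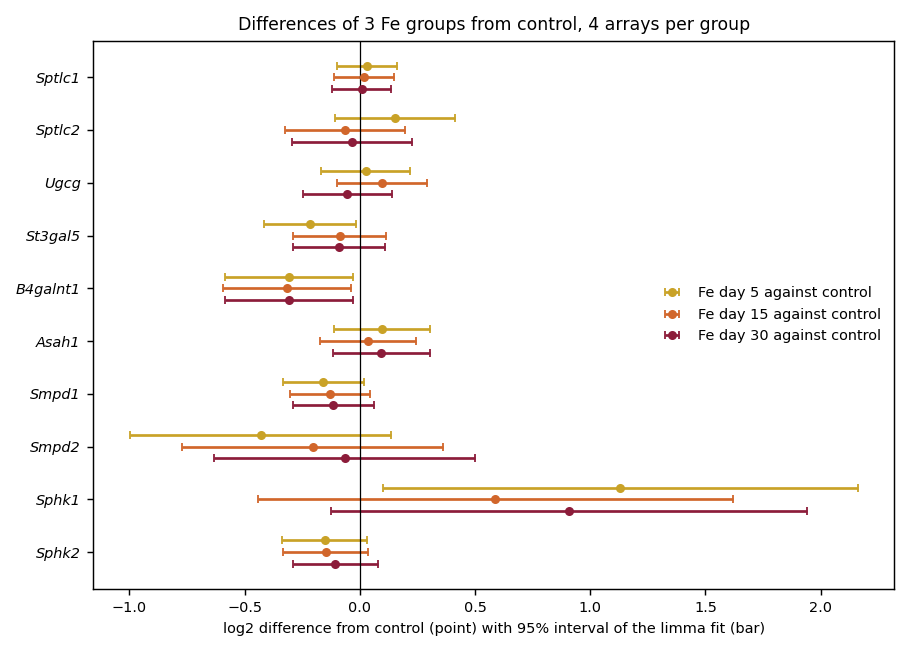
Log2 difference of each of the 10 enzymes from control (horizontal axis) at day 5, 15 and 30, with the 95% interval of the limma fit as bars and 4 arrays per group. The 3 B4galnt1 points lie together near −0.31, the Sphk1 points lie between 0.59 and 1.13 with the widest bars, and the Sptlc1 points lie within 0.03 of 0.

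Sptlc1 and Sptlc2 encode the long-chain base subunits of serine palmitoyltransferase, the first step of the pathway. The probe used for Sptlc1 was among the steadiest features measured. Its log2 signals were 1.79, 1.80, 1.82 and 1.70 in the controls, 1.91, 1.88, 1.68 and 1.77 at day 5, 1.83, 1.84, 1.76 and 1.76 at day 15, and 1.80, 1.77, 1.78 and 1.79 at day 30. All 16 values lay within 0.22 of each other, and the residual SD of 0.06 was smaller than that of all but 1.11% of features. The differences from control were 0.03 ± 0.06 (SE, n = 4 per group) at day 5, 0.02 at day 15 and 0.0074 at day 30, and the 95% intervals on the 3 days lay between −0.12 and 0.16. Dimmer probes of Sptlc1, A_44_P314081 and A_44_P440870, spread more. Their group SDs were 0.12 to 0.17 and 0.16 to 0.20, against 0.01 to 0.10 for the probe used. At day 15 they differed from control by −0.09 ± 0.11 (SE) and −0.13 ± 0.12.

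Sptlc2 stood at −2.11, −2.25, −1.93 and −2.10 in the controls and at −2.14, −1.49, −2.16 and −2.00 at day 5. It stood at −2.12, −2.19, −2.17 and −2.17 at day 15 and at −2.22, −2.15, −2.11 and −2.05 at day 30. The day 5 difference of 0.15 ± 0.12 (SE) came with 1 array above the controls, replicate 2, and was 0.0011 without it. The 8 other measured genes listed for the synthesis of ceramide had 0 called on each day. They were the ceramide synthases Cers1, Cers2, Cers4 and Cers5, the reductase Kdsr, the desaturases Degs1 and Degs2, and Ormdl2. Ormdl2, chosen after its values were seen, stood at 3.18, 3.19, 3.23 and 3.11 at day 15. These lay below the controls of 3.34, 3.27, 3.44 and 3.27, a gap seen in that direction for 5.73% of all features. Degs2 was higher at day 30 by 0.34 ± 0.15 (unadjusted p = 0.037, limma adjusted p = 0.63), and its Fe values of −1.13, −1.22, −1.23 and −1.65 overlapped the controls, −1.75 to −1.52. Cers4, chosen after its values were seen, had a difference of −0.93 at day 5 that went with 1 control array, replicate 3, at −2.43, while the other 3 controls stood at −5.57 to −5.33.

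Ugcg, St3gal5 and B4galnt1 act in order on the way to complex gangliosides. Ugcg adds glucose to ceramide, St3gal5 makes the simple ganglioside GM3 by adding sialic acid to lactosylceramide, and B4galnt1 adds N-acetylgalactosamine, the step that opens the complex ganglioside series of the brain. B4galnt1 stood at 3.66, 3.69, 3.63 and 3.53 in the controls. It stood at 3.42, 3.12, 3.49 and 3.25 at day 5, at 3.34, 3.46, 3.47 and 2.97 at day 15, and at 3.50, 3.28, 3.02 and 3.49 at day 30. All 12 Fe values lay below all 4 controls, although the highest Fe value, 3.50, came close to the lowest control, 3.53. Among all features, 0.587% had their 12 Fe arrays below the 4 controls. In the single comparisons the groups did not overlap, with the Fe group lower, for 5.09% of features at day 5, 5.73% at day 15 and 3.63% at day 30.

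The B4galnt1 means were 3.63 ± 0.07 (SD, n = 4) in the controls, 3.32 ± 0.17 at day 5, 3.31 ± 0.23 at day 15 and 3.32 ± 0.23 at day 30. The difference from control was −0.31 ± 0.13 (SE) at day 5, −0.32 at day 15 and −0.31 at day 30, a signal 1.24-fold, 1.25-fold and 1.24-fold lower. The 95% intervals were −0.59 to −0.03 at day 5, −0.59 to −0.04 at day 15 and −0.58 to −0.03 at day 30. The unadjusted p was 0.032, 0.028 and 0.032 and limma's adjusted p 0.47, 0.39 and 0.63, so the difference did not pass the threshold on any day. Between day 30 and day 5 the means differed by 0.0005 (95% interval −0.28 to 0.28). The 3 comparisons share the same 4 control arrays. On the slides that also held a control, the Fe array differed from that control by −0.41 in Fe day 5 replicate 4. The differences were −0.34, −0.17 and −0.07 in Fe day 15 replicates 1 to 3, and −0.67 and −0.14 in Fe day 30 replicates 3 and 4. Their direction was fixed beforehand, since every Fe value lay below every control, so only their size is of use. On each of these slides the control lay at position 1 and the Fe array at position 2 or 4. Position on the slide therefore cannot be told apart from iron in these differences. Without Fe day 15 replicate 4 the day 15 difference was −0.20 (adjusted p = 0.69), and without Fe day 30 replicate 3 the day 30 difference was −0.21 (adjusted p = 0.81).

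**Figure D2:**
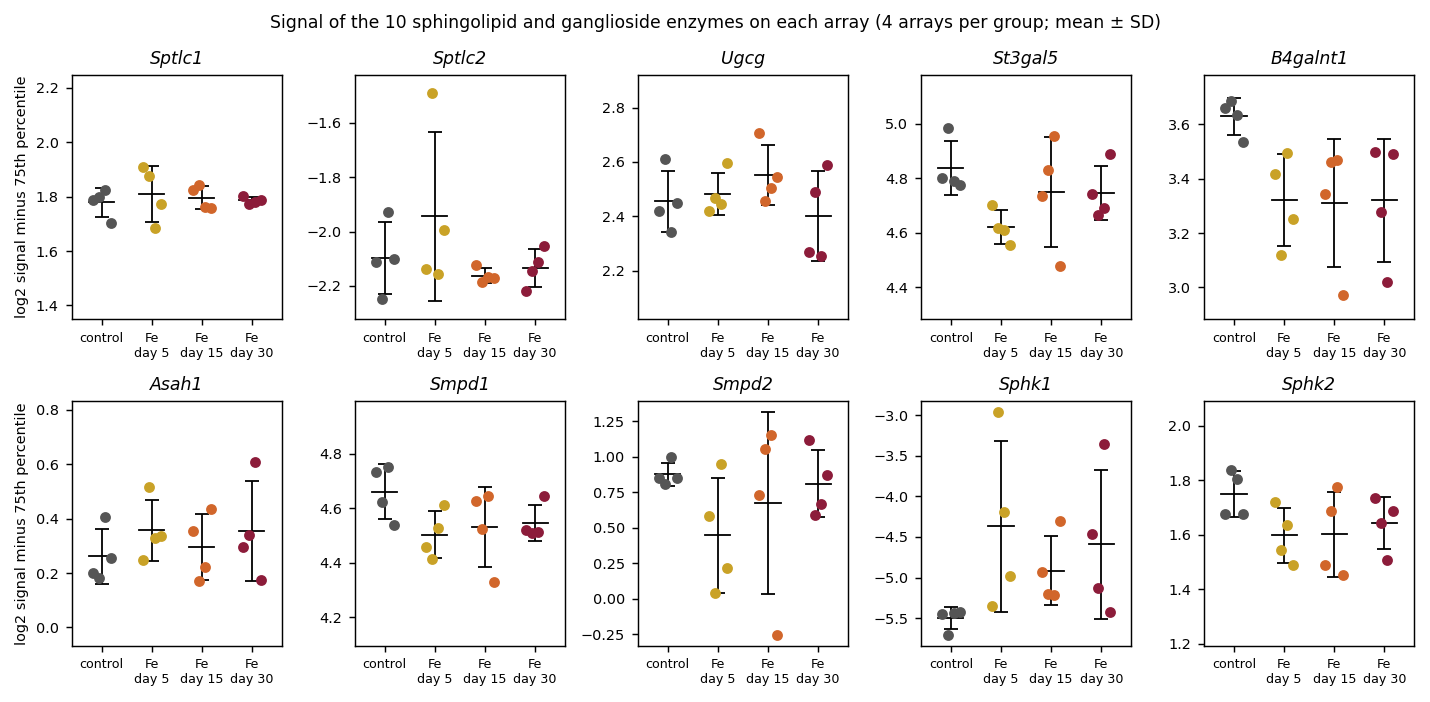
Log2 signal of each enzyme (vertical axis) on each of the 16 arrays by group, with the mean and SD of the 4 arrays; the vertical ranges differ between panels. B4galnt1 lies at 3.53 to 3.69 in the controls and at 2.97 to 3.50 in the 3 Fe groups, and Sphk1 at −5.70 to −5.42 in the controls and up to −2.96 at day 5.

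Markers of hippocampal subfields (Prox1, Pdzd2, Wfs1, Calb1, Grik4, Nr3c2 and Neurod6) moved with B4galnt1 from array to array. Their score was −0.09 to 0.07 in the controls, −0.84 to 0.03 at day 5, −1.06 to −0.10 at day 15 and −0.70 to −0.05 at day 30. Their summed linear signal, relative to the 75th percentile, was 24.2 to 29.5 in the controls. After iron it was 13.7 to 23.4 at day 5, 14.9 to 25.7 at day 15 and 14.4 to 27.1 at day 30. The 3 arrays with the lowest B4galnt1, Fe day 15 replicate 4 (2.97), Fe day 30 replicate 3 (3.02) and Fe day 5 replicate 2 (3.12), had the 3 lowest scores, −1.06, −0.70 and −0.84. Fe day 5 replicate 3 had a score of 0.03, within the control range, and a B4galnt1 signal of 3.49. The general neuron markers had scores of −0.02 to 0.02 on control arrays and of −0.21 to 0.16 after iron. Other markers moved with B4galnt1 as well. Over the 16 arrays its correlation was 0.91 with the subfield score, 0.52 with the neuron score, −0.66 with the microglia score and −0.81 with the blood score. The subfield score moved with other members too, at 0.81 for Smpd2, 0.75 for Sphk2, 0.74 for Smpd1 and 0.65 for St3gal5. It was −0.70 for Asah1, −0.65 for Sphk1, −0.34 for Sptlc2, −0.31 for Sptlc1 and −0.08 for Ugcg. The blood score was −0.31 to 0.26 in the controls and 0.47 to 2.08 at day 5. It was 0.39 to 1.55 at day 15 and −0.39 to 1.82 at day 30. The part of any of these markers in the B4galnt1 difference was not tested.

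**Figure D3:**
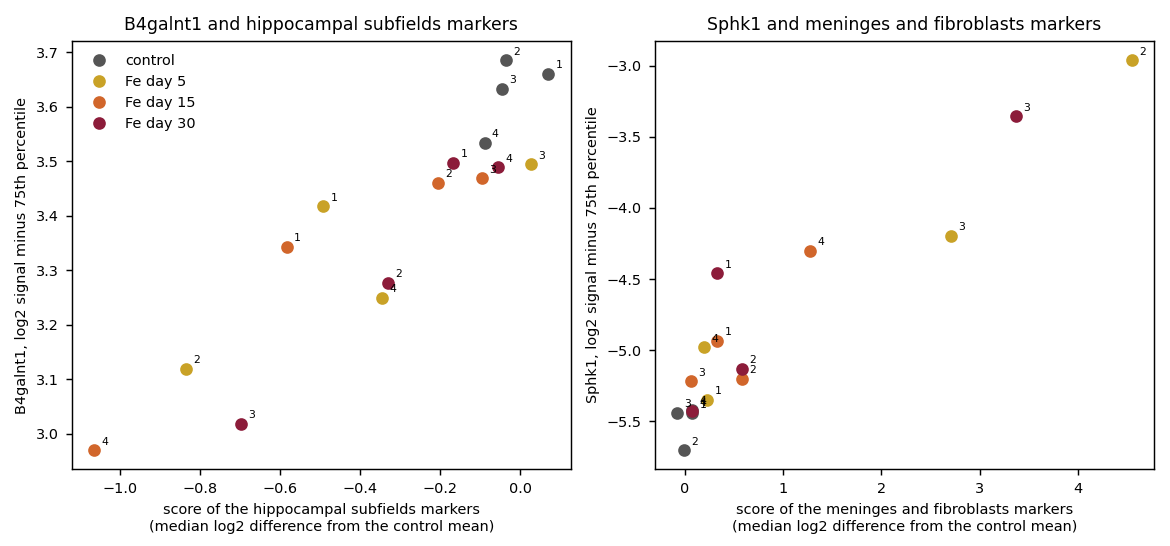
Left, B4galnt1 log2 signal against the score of the hippocampal subfield markers; right, Sphk1 log2 signal against the score of the meninges and fibroblast markers. Each point is 1 array with its replicate number, and scores are median log2 differences from the control means; the array with the lowest subfield score, −1.06, has the lowest B4galnt1 signal, 2.97, and the array with the highest meninges score, 4.55, has the highest Sphk1 signal, −2.96.

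St3gal5 stood at 4.80, 4.98, 4.79 and 4.77 in the controls and at 4.70, 4.62, 4.61 and 4.55 at day 5, where all 4 Fe values lay below all controls. The same held for 5.09% of all features at day 5. At day 15 St3gal5 stood at 4.74, 4.83, 4.95 and 4.48 and at day 30 at 4.74, 4.66, 4.69 and 4.89, overlapping the controls on both days. The difference at day 5 was −0.22 ± 0.09 (SE, 1.16-fold lower, unadjusted p = 0.037, limma adjusted p = 0.48). At day 15 it was −0.09 and at day 30 also −0.09, and without Fe day 15 replicate 4 the day 15 value was 0.0025. Whether the day 5 difference exceeded that of the later days is given by the comparisons among Fe days: 0.13 ± 0.09 for day 15 against day 5 (adjusted p = 0.82) and 0.13 for day 30 against day 5 (adjusted p = 1).

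Ugcg stood at 2.42, 2.61, 2.34 and 2.45 in the controls, 2.42, 2.47, 2.44 and 2.59 at day 5, 2.71, 2.45, 2.50 and 2.54 at day 15, and 2.27, 2.49, 2.26 and 2.59 at day 30. All 3 Fe groups overlapped the controls, and the differences were 0.03 ± 0.09 (SE), 0.10 and −0.05. A dimmer probe of Ugcg, A_44_P208275, gave another picture at day 15. It stood at −1.81, −1.75, −1.99 and −1.90 in the controls and at −1.39, −1.54, −1.55 and −1.51 at day 15, above all controls, with a difference of 0.36 ± 0.09 (SE, limma unadjusted p = 0.00124, adjusted p = 0.20 over the probes that passed the filter). Its differences at days 5 and 30 were 0.11 and 0.05. With both probes averaged the day 15 difference was 0.23 (adjusted p = 0.35). The 2 probes thus disagreed in size at day 15.

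**Figure D4:**
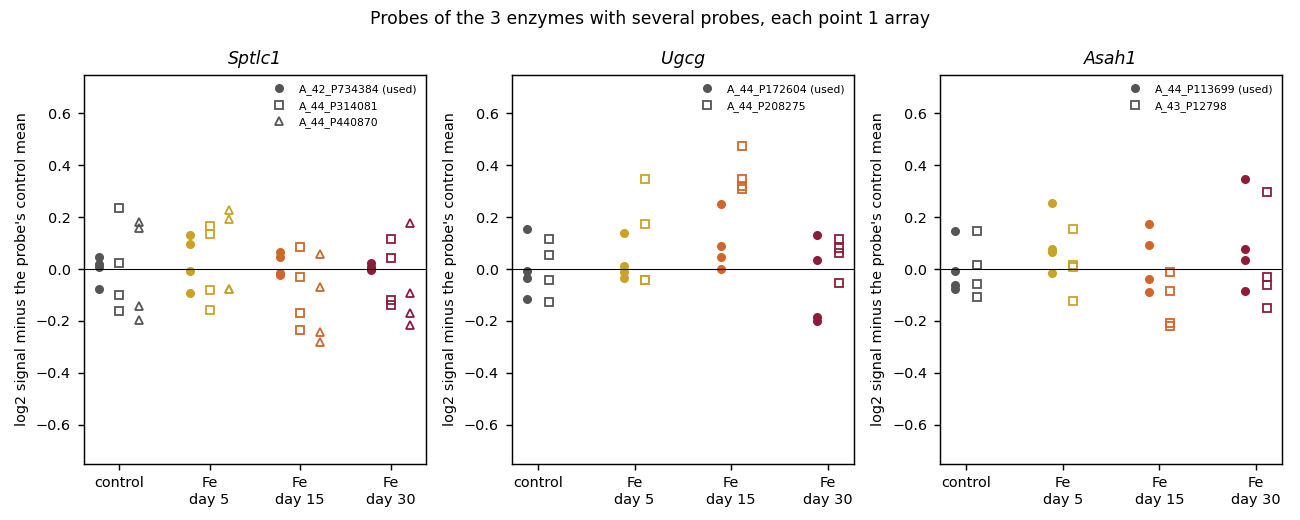
Log2 signal minus the probe's own control mean on each array for the 3 enzymes with several probes, filled for the probe used and open for the others. The open squares of Ugcg at day 15 lie above the control squares by 0.36 in the mean, against 0.10 for the filled circles. The open squares of Asah1 at day 15 all lie below 0, with a mean of −0.13. Otherwise the probes of Sptlc1 and Asah1 scatter on both sides of 0.

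Of the 8 other ganglioside synthesis genes measured, 7 stood below control at day 5, 6 at day 15 and 7 at day 30, with medians of −0.15, −0.21 and −0.17, and 0 were called on each day by limma. Together with the 3 members, 2 of 11 were above control at day 5, 3 of 11 at day 15 and 1 of 11 at day 30, while 45.8%, 50.3% and 46.6% of all features were. At an unadjusted p under 0.05 and lower there were 3 of 11 at day 5, 4 of 11 at day 15 and 4 of 11 at day 30, against 6.28%, 6.33% and 4.66% of all features in that direction. Members and list were chosen with earlier results of these data known. The genes were also read on the same arrays with the same controls, so the 11 are not separate observations. B3galt4, which adds galactose to make GM1 and GD1b, had the lowest p of the list at day 15. Its log2 signals there, −0.74, −1.01, −0.77 and −0.77, lay below all controls (−0.49, −0.45, −0.63 and −0.44), a difference of −0.32 ± 0.08 (SE, unadjusted p = 0.000803, adjusted p = 0.18). At day 30 they were −0.65, −0.67, −0.71 and −0.67, again below all controls, with a difference of −0.18 (adjusted p = 0.63). Of all features, 5.73% at day 15 and 3.63% at day 30 had all Fe values below all controls.

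St8sia3, an α-2,8-sialyltransferase, stood at 0.41, 0.53, 0.44 and 0.47 in the controls and at 0.28, 0.23, −0.24 and 0.08 at day 30, below all controls, a difference of −0.38 ± 0.12 (adjusted p = 0.54). At day 5 it stood at 0.29, 0.15, 0.19 and 0.27, also below all controls, a difference of −0.24 ± 0.12 (adjusted p = 0.49). At day 15 it was lower by −0.30 ± 0.12 (adjusted p = 0.39), with 1 of the 4 values, 0.43, within the control range. B4galt6, which makes lactosylceramide, was lower by −0.15 ± 0.07 at day 5 (adjusted p = 0.48) and by −0.21 ± 0.07 at day 15 (adjusted p = 0.33), and only at day 15 did its 4 values lie below all controls. The share of all features below all controls was 5.09% at day 5, 5.73% at day 15 and 3.63% at day 30. St8sia5, a sialyltransferase of the complex gangliosides, differed by −0.53 ± 0.23 at day 30 (adjusted p = 0.64), with overlap. St3gal1 was the exception in direction, with 0.63 ± 0.22 at day 5 (unadjusted p = 0.014, adjusted p = 0.47). Its values of −5.14, −4.28, −4.50 and −4.40 at day 5 overlapped the controls, −5.38 to −5.12, and the highest of all 16 was −4.10 in Fe day 30 replicate 3, where the meninges score was 3.37. The array with the lowest value was not the same for all genes of this list. B3galt4 was lowest in Fe day 15 replicate 2 (−1.01), where the subfield score was −0.21. On the 3 arrays with the lowest subfield scores B3galt4 also lay below all controls. It stood at −0.77 in Fe day 15 replicate 4, −0.78 in Fe day 5 replicate 2 and −0.71 in Fe day 30 replicate 3. St8sia3 was lowest in Fe day 30 replicate 3 (−0.24) and Fe day 15 replicate 4 (−0.14), where the subfield scores were −0.70 and −1.06. St3gal2, chosen after its values were seen, was lowest on the 3 arrays with the lowest subfield scores, at 1.11 in Fe day 30 replicate 3, 1.14 in Fe day 5 replicate 2 and 1.24 in Fe day 15 replicate 4. The part of the subfield markers in the lower values of the list was not tested.

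Asah1, Smpd1 and Smpd2 release ceramide or break it down. Asah1 is the acid ceramidase of the lysosome. It stood at 0.20, 0.18, 0.41 and 0.25 in the controls, 0.25, 0.51, 0.33 and 0.34 at day 5, 0.35, 0.17, 0.22 and 0.44 at day 15 and 0.30, 0.34, 0.61 and 0.17 at day 30, overlapping on all days. The differences from control were 0.10 ± 0.10 (SE), 0.04 and 0.09. The highest value, 0.61, was that of Fe day 30 replicate 3, whose scores were 0.89 for microglia, 3.37 for meninges and 8.24 for choroid plexus. In the controls these scores were −0.06 to 0.08, −0.07 to 0.08 and −0.62 to 0.85. The next highest value, 0.51 in Fe day 5 replicate 2, came with a microglia score of 0.12 and a meninges score of 4.55. The part of these markers in the Asah1 values was not tested. The other probe of Asah1 gave 0.01, −0.13 and 0.01 on the 3 days, so that the probes had opposite signs at day 15. The day 15 value of that probe had an SE of 0.10 and an adjusted p of 0.62 over the probes that passed the filter in limma.

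Smpd1, the acid sphingomyelinase of the lysosome, stood at 4.73, 4.62, 4.75 and 4.54 in the controls. It stood at 4.46, 4.41, 4.53 and 4.61 at day 5, at 4.63, 4.52, 4.65 and 4.33 at day 15, and at 4.52, 4.51, 4.51 and 4.64 at day 30. Of the 12 Fe values 8 lay below the lowest control and 0 above the highest, and the groups overlapped on each day. The differences were −0.16 ± 0.08 (SE, adjusted p = 0.49), −0.13 (adjusted p = 0.55) and −0.12 (adjusted p = 0.71), and the 95% intervals reached from −0.33 to 0.06.

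Smpd2, a neutral sphingomyelinase, was even among the controls and uneven after iron. It stood at 0.85, 0.81, 1.00 and 0.85 in the controls, at 0.58, 0.04, 0.95 and 0.21 at day 5, at 0.73, 1.06, 1.16 and −0.25 at day 15, and at 1.12, 0.59, 0.67 and 0.87 at day 30. The SD was 0.08 in the controls against 0.40, 0.64 and 0.24 in the Fe groups (n = 4 each). Of the 12 Fe values 7 lay below all controls and 3 above all controls, so the groups overlapped on each day. The differences were −0.43 ± 0.27 (SE, adjusted p = 0.55), −0.20 (adjusted p = 0.80) and −0.07 (adjusted p = 0.96). Without Fe day 15 replicate 4 the day 15 value was 0.10.

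Of the 9 other genes of sphingomyelin and ceramide turnover 0 were called on each day. Smpdl3b, a sphingomyelinase-like protein, stood at 0.90, 0.22, 1.21 and 0.91 at day 5, below the controls of 1.24, 1.28, 1.29 and 1.43, a difference of −0.50 ± 0.19 (SE, unadjusted p = 0.020, adjusted p = 0.47). At day 15 it stood at 0.84, 1.17, 1.04 and 0.36 and at day 30 at 1.22, 0.96, 0.93 and 1.07, so that, like B4galnt1, it was below all controls on all 12 Fe arrays. Its highest Fe value, 1.22, came close to the lowest control, 1.24. Among all features, 0.587% had their 12 Fe arrays below the controls. Smpd3, the neutral sphingomyelinase that is prominent in brain, stood at 0.67, 1.09, 1.11 and 0.71 at day 15 against 1.17, 1.27, 1.33 and 1.18 in the controls. Its difference of −0.34 ± 0.13 (adjusted p = 0.37) was again without overlap. Groups without overlap, the Fe group lower, made up 5.09% of all features at day 5 and 5.73% at day 15. With the 3 members, 9, 8 and 6 of 12 turnover genes were below control at days 5, 15 and 30. Above control were 3, 4 and 6 of 12, beside 45.8%, 50.3% and 46.6% of all features.

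Sphk1 and Sphk2 encode the sphingosine kinases. The probe of Sphk1 was faint, with processed signals of 10.8 to 115 beside array percentiles of 553 to 924, though each value was marked as well above background. Its log2 signals were −5.44, −5.70, −5.44 and −5.42 in the controls. They were −5.35, −2.96, −4.20 and −4.98 at day 5, −4.93, −5.20, −5.22 and −4.30 at day 15, and −4.46, −5.13, −3.35 and −5.43 at day 30. Of the 12 Fe arrays 11 lay above all controls, the exception being Fe day 30 replicate 4. Groups that did not overlap, with the Fe group higher, made up 2.75% of all features at day 5 and 4.11% at day 15.

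The Sphk1 mean was −5.50 ± 0.13 (SD, n = 4) in the controls, −4.37 ± 1.06 at day 5, −4.91 ± 0.43 at day 15 and −4.59 ± 0.92 at day 30. The differences were 1.13 ± 0.48 (SE, 2.19-fold, unadjusted p = 0.034, limma adjusted p = 0.47) at day 5, 0.59 (adjusted p = 0.66) at day 15 and 0.91 (adjusted p = 0.65) at day 30. Without Fe day 5 replicate 2 the day 5 value was 0.66, and without Fe day 30 replicate 3 the day 30 value was 0.50. Without the 3 arrays high in meninges and choroid plexus markers, left out after the data were seen, the values were 0.34 at day 5 (adjusted p = 0.72), 0.59 at day 15 and 0.50 at day 30 (adjusted p = 0.69). With another background correction, normexp with an offset of 50, they were 0.26, 0.13 and 0.22. That offset is larger than the processed signal of the probe on all arrays but Fe day 5 replicate 2 and Fe day 30 replicate 3.

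The score of the meninges and fibroblast markers was 4.55, 3.37 and 2.71 on the 3 arrays with the highest Sphk1, Fe day 5 replicate 2, Fe day 30 replicate 3 and Fe day 5 replicate 3, and 1.28 on the fourth, Fe day 15 replicate 4. Their summed linear signal ran from 10.4 to 11.7 in the controls and up to 200 at day 5, 20.02 at day 15 and 145 at day 30. The Fe arrays with a score within the control range were Fe day 15 replicate 3 and Fe day 30 replicate 4, both at 0.07. Sphk1 was above all controls on the former, at −5.22, and within their range on the latter, at −5.43. On slides with a control, Sphk1 differed from it by 0.46 in Fe day 5 replicate 4, by 0.77, 0.24 and 0.20 in Fe day 15 replicates 1 to 3, and by 2.35 and 0.01 in Fe day 30 replicates 3 and 4. There the control lay at position 1 of the slide and the Fe array at position 2 or 4. The part of these markers in the Sphk1 difference was not tested.

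Sphk2, the other kinase, leaned the opposite way and was read by a brighter probe. It stood at 1.68, 1.84, 1.81 and 1.68 in the controls, 1.72, 1.55, 1.64 and 1.49 at day 5, 1.49, 1.69, 1.78 and 1.45 at day 15, and 1.73, 1.64, 1.51 and 1.69 at day 30. Of the 12 Fe values 7 were below all controls and 0 above. The differences were −0.15 ± 0.09 (SE, adjusted p = 0.52), −0.15 (adjusted p = 0.52) and −0.11 (adjusted p = 0.74), with overlap on each day. Of the receptors of sphingosine-1-phosphate 4 were measured, S1pr1, S1pr2, S1pr4 and S1pr5, and with the lyase Sgpl1 these 5 genes had medians of 0.17, 0.04 and 0.17 and 0 called on each day. S1pr4 differed from control by 0.65 at day 5 and S1pr1 by 0.39, both chosen after their values were seen (adjusted p = 0.48 and 0.50).

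Of the 12 measured enzymes and helper proteins that take glycolipids apart, 7 were above control at day 5, 8 at day 15 and 9 at day 30, beside 45.8%, 50.3% and 46.6% of all features. Their medians were 0.05, 0.08 and 0.13, and 0 were called on each day. At an unadjusted p under 0.05 there were 0 at day 5, 2 at day 15 (Neu1 and Neu2, both higher) and 0 at day 30. Neu1, the lysosomal sialidase, stood at 1.96, 1.69, 1.74 and 1.81 at day 15, above the controls of 1.63, 1.59, 1.64 and 1.56, a difference of 0.19 ± 0.07 (SE, unadjusted p = 0.018, limma adjusted p = 0.36). Groups without overlap, the Fe group higher, made up 4.11% of all features at day 15. Neu2, another sialidase, differed by 0.92 ± 0.43 at day 15 (adjusted p = 0.43), carried by replicates 1 and 4 at −1.61 and −2.76 while the other 2 stood at −3.85 and −3.83 within the control range. Ugt8, which makes the galactolipids of myelin and was the only gene of its list measured, differed by 0.27, 0.31 and 0.02 with 0 called. In all, 43 of 67 listed pathway genes were measured besides the members, and 3 of them at day 5, 8 at day 15 and 4 at day 30 had an unadjusted p under 0.05. These are 6.98%, 18.6% and 9.30% of the 43 genes, beside 10.3%, 11.5% and 7.77% of all features.

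**Figure D5:**
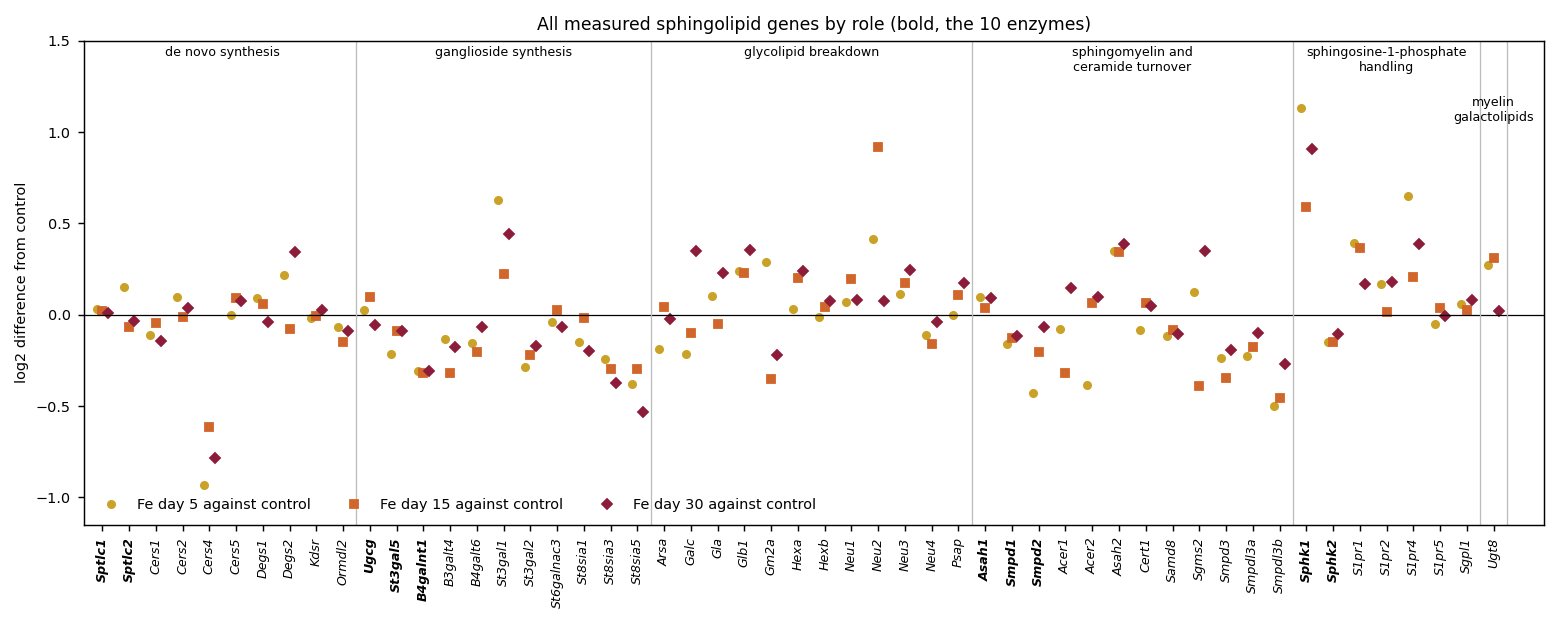
Log2 difference from control (vertical axis) at day 5, 15 and 30 of the 10 enzymes (bold) and the 43 other measured sphingolipid genes, arranged by role. Most ganglioside synthesis genes lie below 0 with St3gal1 above at 0.63 on day 5, the glycolipid breakdown genes lie on both sides, and Sphk1 has the highest point at 1.13.

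Among the Fe days the largest member differences came with large errors. Sphk1 differed by −0.54 ± 0.48 (SE) at day 15 against day 5, and Smpd2 by 0.365 ± 0.265 (SE) at day 30 against day 5. For these members the fit cannot tell a change between Fe days from none. Over day 15 against day 5, day 30 against day 15 and day 30 against day 5, 0 members were called, where limma called 0% of all features in each, and 0 of 10 had an unadjusted p under 0.05, against 7.20%, 6.49% and 2.96% of all features. The lowest adjusted p was 0.75, for Sptlc2 at day 15 against day 5, with −0.22 ± 0.12 (SE). Without overlap between the groups there were 0 members in any of these comparisons, against 3.71%, 3.29% and 1.52% of features.

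Fe day 15 replicate 4 had the lowest of the 16 values for 5 members, B4galnt1, St3gal5, Smpd1, Smpd2 and Sphk2. These 5 correlated with one another at 0.48 to 0.84 over the arrays, so they are not separate observations. Fe day 5 replicate 2 had the highest value for Sphk1 and Sptlc2. Control replicate 2 had the highest value for 3 members and the lowest for 2. The share of all features with their extreme value on these arrays was not counted. In Fe day 15 replicate 4 the microglia score was 1.04 against −0.06 to 0.08 in the controls, the blood score 1.55 and the subfield score −1.06. The part of these marker levels in the values of that array was not tested. The control group had the smallest SD of the 4 groups for 5 of 10 members, and for 47.3% of all features. The median SD of the members was 0.10 in the controls, 0.11 at day 5, 0.15 at day 15 and 0.13 at day 30, below the medians of all features (0.13, 0.18, 0.18 and 0.19).

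For each member the named gene with the most similar profile over the 16 arrays was looked up by Pearson's correlation of log2 signals. The values describe these arrays only. They hold the differences between groups, come with no p because each gene was picked as the highest of all named genes, and say nothing of shared control. B4galnt1 was most like Dlg4, the postsynaptic scaffold PSD-95 (r = 0.98, Spearman's rho = 0.94, and r = 0.97 without the 2 arrays farthest from the B4galnt1 median). Sphk1 was most like Cfd, complement factor D (r = 0.96, rho = 0.88, and 0.84 without the 2 farthest). St3gal5 was most like Aup1 (r = 0.95, rho = 0.97, and 0.91). Smpd1 was most like Por, the cytochrome P450 reductase (0.93, 0.93 and 0.88), and Smpd2 like Fkbp5, a cochaperone of the glucocorticoid receptor (0.92, 0.94 and 0.89). Asah1 was most like Cklf (0.94, 0.89 and 0.84) and Sphk2 like Fgfr1op2 (0.93, 0.92 and 0.93). The likeness of Sptlc2 to Kif20b was 0.93 with a rho of 0.72, and 0.75 without the 2 farthest arrays. Ugcg with Xkr6 (0.83, 0.77 and 0.67) and Sptlc1 with Comtd1 (0.81, 0.70 and 0.76) had the lowest Pearson correlations of the 10.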

How the data were processed

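The submitters' processing notes name Agilent Feature Extraction 9.5 for the scans. The deposited processed signal is, per the file headers, a background-subtracted and detrended intensity on a linear scale, not scaled between arrays. The deposited series table equalled it in 100% of entries (relative tolerance 1e-06) and was not used further. The deposited marks for spots above background and for outlying spots were kept.

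Processed signals were taken to log2 and centred on the array's 75th percentile, without outlying spots and with spots of a probe averaged. A probe was kept when every array of some group marked it above background (30548 of 41012). Symbols came through RefSeq accessions and a RefSeq table on GRCr8, which matched 15184 of 20378 probes with such an accession. The design's own build is rn4, so no coordinates are given. For each gene, or accession without a symbol, the probe with the highest mean processed signal was used, which gave 26565 features.

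The 4 groups entered 1 limma model (version 3.58.1, R 4.3.3) over the 16 arrays, leaving 12 residual degrees of freedom, two-sided. The fit was tested on simulated data. The p-values rest on the spread among these arrays, 1 per rat, which holds rat and array variation together. limma adjusts the spread of each feature with that of all features. It takes 1 spread for the 4 groups, although the SD of Sphk1 was 0.13 in the controls and 1.06 at day 5. Precision is limited by the number of arrays. The members and gene lists were chosen with earlier results of these data known. Pathway genes named are up to 4 higher and 4 lower per Fe day of lowest unadjusted p under 0.05, and other names are marked. Slides held 2 or 3 arrays each. All control arrays lay at position 1 of their slide and all Fe day 15 arrays at position 2. The Fe day 30 arrays lay at position 2 or 4, and the Fe day 5 arrays at position 1 or 2. Position on the slide therefore cannot be told apart from iron at days 15 and 30. Replicate numbers were not stated to pair the animals and were treated as unpaired. Deviations of same-numbered arrays correlated at −0.41 to 0.39 (24 pairs) and those of other arrays at −0.47 to 0.41 (72 pairs). These ranges cannot exclude a pairing. Alternatives covered scaling, background, the filter, weights, blocks, probes and left-out arrays.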

Additional observations from a re-analysis of the deposited data

Results flagged for a closer look

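In 3 of the 40 sets of 4 values (10 enzymes in 4 groups) 1 array stood apart from the other 3 by Dixon's ratio of gap to range, whose critical value for 4 samples is 0.829; chance gives about 1 in 20. St3gal5 in control replicate 2 was 4.98 against 4.77 to 4.80 (ratio 0.877). Sphk1 in the same array was −5.70 against −5.44 to −5.42 (ratio 0.918). Smpd1 in Fe day 30 replicate 4 was 4.64 against 4.51 to 4.52 (ratio 0.902).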

How the results depend on the processing

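Over all alternatives tried, limma called 0 members in every comparison, and 1614 member differences moved by less than the spread between replicates while 6 moved by more. These were Sphk1 at day 5 with normexp (0.26) or without the 3 arrays high in meninges and choroid plexus markers (0.34), Sphk1 at day 15 against day 5 without those arrays (0.25), and, with all probes of a gene averaged, Sptlc1 at day 15 (−0.07), Sptlc1 at day 15 against day 5 (−0.11) and Ugcg at day 15 (0.23). B4galnt1 stayed below control in all 27 alternatives, by −0.37 to −0.24 at day 5, −0.37 to −0.20 at day 15 and −0.37 to −0.21 at day 30, with adjusted p from 0.193 to 0.984.

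Counts over all features moved more, from 0 at day 5, 0 at day 15, 2 at day 30, 0 between Fe days and 0 in the F-test; the cause was not tested. Quantile normalization gave 8 at day 30 and 1 in the F-test, centring on the median 9 and 1. Without the filter on dim probes there were 1 at day 5, 1 at day 15 and 1 in the F-test. With only the groups compared there were 2 at day 15, 0 at day 30 and 1 for day 30 against day 5. Array weights gave 184 at day 15, 25 at day 30, 2 for day 15 against day 5 and 17 in the F-test. The slide as a block gave 0 at day 30, and the replicate block gave 1 at day 15. Without the 3 arrays, a choice made after seeing the data, there were 1 at day 15 and 0 at day 30. Leaving out 1 array gave 0 to 10 at day 15 (10 without Fe day 15 replicate 4), 0 to 9 at day 30 (9 without Fe day 5 replicate 4), 0 to 13 for day 15 against day 5 (13 without Fe day 15 replicate 4) and 0 to 2 in the F-test. Among the members Sphk1 had the widest range of values, 0.26 to 1.46 at day 5.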
